A study of Homo sapiens with 14 samples.

Results

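Of the 14 arrays of the study, 6 carried RNA from Kasumi-1 cells that had received an siRNA against AML1-ETO, 3 after Amaxa nucleofection and 3 after transfection with the Biorad siLentFect lipid reagent. They were chosen by their labelled construct and transfection method alone, and every probe set of the deposited table was carried into the comparison of nucleofection with lipid. Kasumi-1 is an established human acute myeloid leukaemia line, and all 14 arrays were made from it after 96 h in the same culture medium. The final siRNA concentration was 1.5 µM with nucleofection and 240 nM with lipid. The other groups were luciferase siRNA by nucleofection on 2 arrays and by lipid on 3, nucleofection without siRNA on 1 array and untransfected cells on 2. Firefly luciferase is not a human gene, so its siRNA served as a control without an intended target. Method and dose therefore both differed between the AML1-ETO groups. The depth of knockdown may have differed as well, and the parts of method, dose and depth cannot be told apart in these data. The labels did not say whether replicates were separate cultures, and p-values measure only the spread between arrays, which may be technical.

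AML1-ETO is the fusion of the DNA-binding part of RUNX1 with nearly all of RUNX1T1, made by the chromosomal translocation that defines this leukaemia. It recruits corepressors to RUNX1 sites and holds myeloblasts short of maturation, and its loss by siRNA is known to release granulocytic and monocytic genes. An electric pulse carries nucleic acid through the membrane in nucleofection, whereas a cationic lipid carries it in by endocytosis.

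The myeloblast identity of the line was visible in both groups. KIT, the stem cell factor receptor, had 2110, 1935 and 1720 units of signal by nucleofection, against 2083, 2006 and 2023 by lipid. MPO, the peroxidase of primary granules, lay between 7132 and 7572 by nucleofection and between 4784 and 7389 by lipid. POU4F1, a transcription factor typical of t(8;21) leukaemia, lay between 59.4 and 72.9 by nucleofection and between 50.6 and 66.9 by lipid. Of the 24 markers of cells outside the blood on the array, 9 were below 20 on all 3 nucleofection arrays and 11 on all 3 lipid arrays. On single arrays between 40.4% and 42.4% of all probe sets lay below 20 by nucleofection and between 40.8% and 42.9% by lipid. The count of these markers therefore does not speak to identity. CD34, the progenitor surface glycoprotein, was dim in both groups, like POU4F1, and is described with the stem cell genes. The transcription factors SPI1 and MYB, also taken as markers of the line, read lower by nucleofection and are described below.

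The signals are MAS5 values on a linear scale, in arbitrary units, with the same mean of 138.5 on every array. A fold or difference below is on log2 of the signal after values under 20 were raised to 20, written as nucleofection minus lipid, so that a positive value is higher by nucleofection. The arrays differed in more than single genes. The brightest 1% of probe sets held between 41.7% and 45.4% of the signal by nucleofection and between 30.1% and 38.5% by lipid, and the upper quartile of signal lay between 73.3 and 79.3 by nucleofection and between 80.5 and 94.7 by lipid. A control probe set for ribosomal RNA read between 165 and 525 by nucleofection and between 8.11 and 49.8 by lipid, where 3 arrays against 3 allow no exact two-sided permutation p below 0.1, the value obtained. Lipid replicate 3 stood apart, with the lowest scale factor of the 6 arrays, 0.488, and the highest upper quartile. The part of these array properties in the results was not tested, apart from the alternatives named beside them.

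All 4 RUNX1T1 probe sets read lower by nucleofection than by lipid, with no overlap of the arrays. Of 8130 genes, each taken at its brightest probe set, 25.7% were also lower without overlap. RUNX1T1 supplies the ETO part of the fusion, and whether the signal came from the fusion or from a transcript of RUNX1T1 itself cannot be told apart here. RUNX1 was not analysed here. The brightest probe set had 318, 328 and 251 units by nucleofection, against 399.7, 426 and 502 by lipid. The difference was -0.57 (SE 0.13), 1.48-fold lower, with an adjusted p of 0.0271 in a limma fit to 17203 probe sets without the filter on dim ones. With luciferase siRNA this probe set had 645 and 763 units by nucleofection, against 539.7, 560.3 and 567 by lipid, and untransfected cells had 619 and 514. It thus stood below the untransfected arrays in every AML1-ETO siRNA array of either method.

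The second RUNX1T1 probe set had 76.3, 113 and 95.1 units by nucleofection, against 157, 165 and 166 by lipid, a difference of -0.80 (adjusted p = 0.0212, limma), which missed the threshold after quantile normalization at -0.57 (adjusted p = 0.0798). The third of the RUNX1T1 probe sets had 92.1, 95.8 and 72.4 units by nucleofection, against 153, 151 and 160.4 by lipid, a difference of -0.84 (adjusted p = 0.0159, limma), beside -0.60 with luciferase siRNA, and it too missed after quantile normalization at -0.63 (adjusted p = 0.0548). The dimmest RUNX1T1 probe set had 15.9, 9.44 and 8.12 units by nucleofection, against 30.02, 37.0 and 34.3 by lipid, so that all nucleofection arrays lay below 20 and the fall was at least 0.75. It was the RUNX1T1 probe set that also passed after quantile normalization, at -0.74 (adjusted p = 0.0262, limma). The test of whether the method difference depended on the siRNA did not pass for any of these probe sets, with -0.90 (adjusted p = 0.12, limma) for the brightest. The call of the brightest also rests on the scaling, since quantile normalization gave -0.28 (adjusted p = 0.162, limma). In the fit without the filter it missed the threshold without lipid replicate 2, lipid replicate 3, nucleofection replicate 1 or nucleofection replicate 3, and was -0.45 without the last of these, while in the fit with the filter it missed with 5 of the 6 arrays left out.

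**Figure D1:**
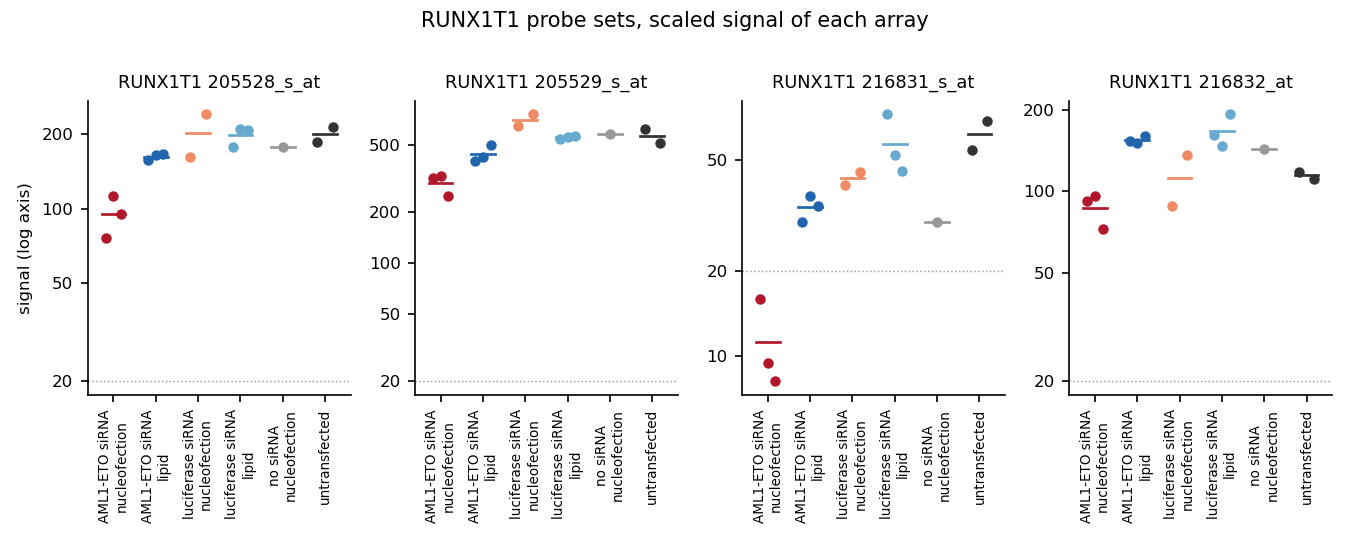
Signal of the 4 RUNX1T1 probe sets (log axis, arbitrary units) on each of the 14 arrays, by siRNA and method; points are arrays, bars are group means and the dotted line is the floor of 20. In every panel the 3 AML1-ETO siRNA nucleofection arrays lie below the 3 lipid arrays, and for the dimmest probe set they lie below the floor.

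Across the array, more probe sets were lower than higher by nucleofection as the signals were deposited. Of 13329 probe sets tested, 1374 (10.3%) passed an adjusted p below 0.05, 269 of them higher (2.02%) and 1105 lower (8.29%). Over 8130 genes, each taken at its brightest probe set, 129 were higher (1.59%) and 686 lower (8.44%), 10% in all, and the arrays of the groups did not overlap for 31.4% of genes, 5.72% higher and 25.7% lower. The median over all genes was -0.18, and list medians below are to be read against it. The direction of the calls moved with the scaling: 433 probe sets were higher (3.25%) and 438 lower (3.29%) after quantile normalization, 6.53% in all, and 422 were higher (3.17%) and 471 lower (3.53%) after each array was centred on its median, 6.7% in all. Over genes the shares were 2.83% higher and 3.09% lower (5.92% in all) after quantile normalization, and 2.51% higher and 3.47% lower (5.98% in all) after centring. Of the calls, 239 higher and 433 lower ones passed again in the same direction after quantile normalization, and 194 higher ones passed only then. Without lipid replicate 3, 161 probe sets were higher and 424 lower.

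The shift depended on brightness. The median difference was -0.01 in the dimmest 20% of tested probe sets, -0.30 between the 80th and 95th percentile and 0.36 in the brightest 1%. With luciferase siRNA the medians of the same bins were 0.10, -0.25 and 0.34. After quantile normalization the AML1-ETO medians lay between -0.03 and 0.01 in all 7 bins, as that method sets them. The 28 genes with the largest differences described below, 14 each way, all passed again under quantile normalization and under median centring, and 25 of them also passed with each of the 6 arrays left out in turn.

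**Figure D2:**
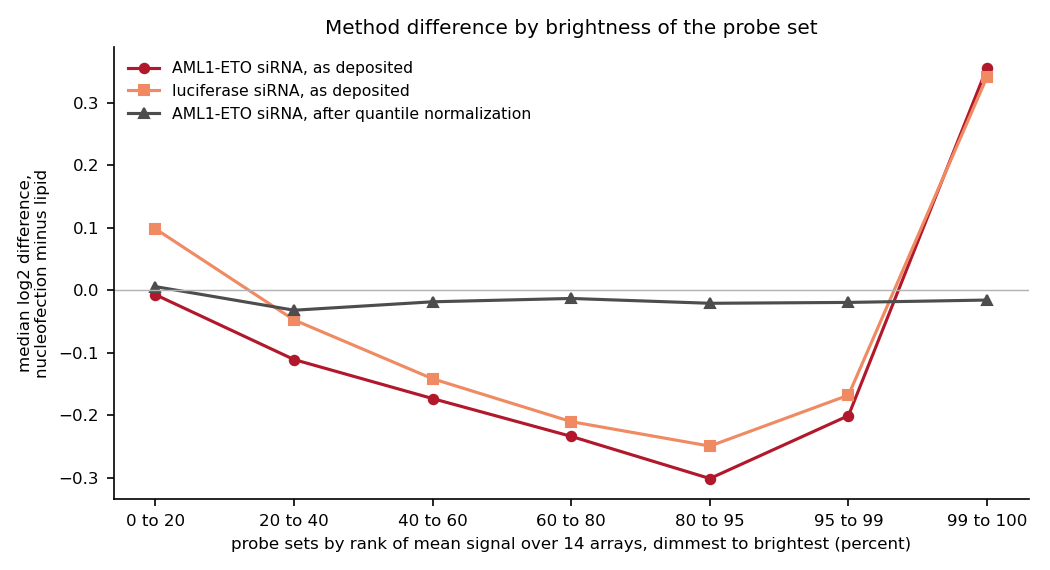
Median log2 difference, nucleofection minus lipid, over tested probe sets ranked by mean signal from dimmest to brightest. As deposited, both siRNAs give a curve that falls to about -0.30 and -0.25 in the 80 to 95 percent bin and reaches 0.36 and 0.34 in the brightest 1%, and the quantile-normalized medians stay near 0.

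CXCL8, the chemokine that draws neutrophils and is released by myeloid cells under inflammatory signals, had the largest fall of all genes taken at their brightest probe set. It had 126, 139.5 and 228 units by nucleofection, against 589, 704 and 811 by lipid, with means of 165 ± 55.6 and 701 ± 111 (SD, n = 3 each). The difference was -2.13 (SE 0.24), 4.37-fold lower, with an adjusted p of 0.000669 (limma). The luciferase arrays did not share it, with 821 and 769 units by nucleofection, against 639.8, 983 and 993 by lipid. The nucleofection array without siRNA had 684 and untransfected cells 755 and 944, so the 3 AML1-ETO nucleofection arrays were the lowest of the 14. A second probe set had 24.3, 33.5 and 31.1 units by nucleofection, against 71.6, 83.3 and 104 by lipid, a difference of -1.54 (adjusted p = 0.00139, limma). The test of the difference between the siRNAs gave -2.02 (SE 0.36) and missed the threshold (adjusted p = 0.0636, limma).

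Among 19 tested chemokine and inflammatory genes, 0 were higher and 2 lower by nucleofection, near the 8.44% of all genes that were lower. The other was CXCL1, a related neutrophil chemokine, with 21.9, 26.02 and 23.3 units by nucleofection, against 48.1, 41.2 and 49.2 by lipid (-0.96, adjusted p = 0.00477, limma). Both chemokine calls held under either scaling and with any array left out. The list had a median of -0.28, against -0.18 for all genes. ICAM1, an adhesion molecule of the same response, read 60.5, 68.9 and 63.2 units by nucleofection, against 124, 123 and 114 by lipid, and its -0.91 missed the threshold (adjusted p = 0.0644, limma). IL1RAP, the shared subunit of interleukin-1 family receptors, fell by 1.76 (adjusted p = 0.00548, limma), with 25.02, 45.4 and 39.96 units by nucleofection, against 105, 128 and 131 by lipid.

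All 6 metallothionein genes of the lists were lower by nucleofection. Metallothioneins are small cysteine-rich proteins that bind zinc and copper and are switched on by MTF1, a zinc-sensing factor that binds metal response elements. MT2A had 1412, 1401 and 1123 units by nucleofection, against 3313, 3224 and 2962 by lipid, with means of 1312 ± 164 and 3166 ± 182 (SD, n = 3 each). MT1H had 325, 295 and 328 units by nucleofection, against 1053, 906 and 1094 by lipid, the largest fall of the family at -1.68 (SE 0.14, adjusted p = 0.000121, limma). MT1X had 706, 846 and 720.2 units by nucleofection, against 1900, 1651 and 1807 by lipid. No array of either group crossed into the other for any of the 6 genes, beside 25.7% of all genes lower without overlap.

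The promoters of 3 of these genes were in the RefSeq promoter table (GRCh38.p14), and their 250 bases before the start are shown because the family moved together and shares a known element. All 3 lie on the plus strand of chromosome 16, MT2A at chr16:56608334-56608583, MT1H at chr16:56669564-56669813 and MT1X at chr16:56682220-56682469. Capitals mark matches to the metal response element core, TGCACNC or TGCGCNC, on either strand, and overlapping matches were allowed.
MT2A: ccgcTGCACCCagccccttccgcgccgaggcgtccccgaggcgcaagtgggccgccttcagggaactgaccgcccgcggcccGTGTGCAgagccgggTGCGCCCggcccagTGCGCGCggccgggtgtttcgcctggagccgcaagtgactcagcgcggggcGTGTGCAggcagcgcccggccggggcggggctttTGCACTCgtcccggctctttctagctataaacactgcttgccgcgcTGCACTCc
MT1H: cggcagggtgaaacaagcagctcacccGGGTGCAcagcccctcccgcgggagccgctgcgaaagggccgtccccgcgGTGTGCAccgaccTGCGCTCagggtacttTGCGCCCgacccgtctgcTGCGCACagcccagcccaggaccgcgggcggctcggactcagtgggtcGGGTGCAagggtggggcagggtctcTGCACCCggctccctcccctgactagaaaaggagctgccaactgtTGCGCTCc
MT1X: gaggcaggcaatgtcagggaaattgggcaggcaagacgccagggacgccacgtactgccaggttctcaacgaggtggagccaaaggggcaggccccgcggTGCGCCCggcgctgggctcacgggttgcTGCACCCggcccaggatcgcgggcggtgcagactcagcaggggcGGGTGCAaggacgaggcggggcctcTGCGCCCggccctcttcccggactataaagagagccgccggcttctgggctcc
MT2A held 7 matches, MT1H 8 and MT1X 4. Of 35116 promoters in the table, 24.8% held at least 1 match in the same window and 0.370% held at least 4. A match describes letters only. MT1E, MT1F, MT1G and MT1HL1 are named without a sequence.

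The differences of the 6 genes ran from -0.96 to -1.68 with a median of -1.26, and all 9 of their tested probe sets passed. MT1E fell by 1.32, MT2A by 1.28, MT1X by 1.24, MT1F by 1.20 and MT1G by 0.96, with adjusted p up to 0.0199 (limma). All 6 probe sets are of the kind that can take signal from related transcripts, so the members are not independent measurements. They formed part of a list of membrane repair, exocytosis and metal genes. Of its 26 tested members 7 were lower and 0 higher, beside 8.44% and 1.59% of all genes. DYSF, a membrane repair protein, was the other one, at -0.67. MT1E, MT1F, MT1H, MT1X and MT2A kept their calls under either scaling and with any array left out. MT1G lost it under quantile normalization (-0.67, adjusted p = 0.15, limma) and without lipid replicate 2 or nucleofection replicate 1.

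MT1HL1, a further metallothionein sequence outside the list, had 390, 529 and 321 units by nucleofection, against 1445, 894 and 1405 by lipid (-1.59, adjusted p = 0.0019, limma). SLC39A4, a zinc importer of the plasma membrane, had 84.2, 97.5 and 69.9 units by nucleofection, against 245, 235 and 267 by lipid (-1.58, adjusted p = 0.000407, limma). The metallothioneins were also lower by nucleofection with luciferase siRNA, where 4 of 6 genes passed and the median was -0.73. Beside them 5.99% of all genes were lower with that siRNA, and the median of all genes was -0.11. The same related probe sets were read, so these members are not independent either. SLC39A4 differed by -1.48 with that siRNA. MT2A read 1695 on the nucleofection array without siRNA and 3132 and 2996 in untransfected cells.

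Genes of cholesterol and fatty acid metabolism were lower by nucleofection, with 10 of 27 tested members lower and 0 higher, against 8.44% of all genes lower. The list median was -0.52. FASN, the multienzyme that builds palmitate, had 254, 305 and 285 units by nucleofection, against 900.3, 1044 and 1022 by lipid. Its difference was -1.81 (SE 0.15), 3.51-fold lower, with an adjusted p of 9.48e-05 (limma). SCD, which desaturates stearate, had 262, 292 and 316 units by nucleofection, against 532, 667 and 615 by lipid (-1.06). SQLE, which makes squalene epoxide, differed by -0.85, DHCR7, which completes cholesterol, by -0.84, and TM7SF2, a sterol reductase, by -1.13.

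The cholesterol exporters moved the same way as the enzymes. ABCA1 had 49.8, 45.2 and 41.99 units by nucleofection, against 103, 178 and 166 by lipid (-1.67, adjusted p = 0.00862, limma), and a second probe set, with 2 nucleofection arrays below 20, fell by at least 2.42. ABCG1, its partner in export, differed by -1.15, and MYLIP, the ligase that marks the LDL receptor for degradation and, like both exporters, is an LXR target, by -1.09. ACLY, which supplies cytosolic acetyl-CoA, and FADS2, a fatty acid desaturase, made up the 10, at -0.63 and -1.05. FASN, SCD, SQLE, DHCR7, TM7SF2, ABCA1 and MYLIP kept their calls under both scalings and with any array left out. ABCG1 missed without lipid replicate 3 (-1.02, adjusted p = 0.053, limma), while ACLY and FADS2 missed under quantile normalization and without most single arrays. FDPS, which makes farnesyl diphosphate, stood at the other end with 0.36 (adjusted p = 0.191, limma), and passed as higher after quantile normalization at 0.64 (adjusted p = 0.0313, limma). With luciferase siRNA 11 members of the list were lower and 0 higher (median -0.51), beside 5.99% of all genes lower with that siRNA.

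Of 19 tested secreted and matrix protein genes, 8 were lower and 2 higher, beside 8.44% of all genes lower and 1.59% higher, with a list median of -0.46. Lower calls outnumbered higher ones among all genes as well, 686 to 129. FBN2, a microfibril protein, had 34.6, 29.97 and 33.9 units by nucleofection, against 145, 113 and 149.5 by lipid (-2.04, SE 0.16, adjusted p = 9.48e-05, limma). With luciferase siRNA FBN2 had 26.6 and 26.9 units by nucleofection, against 144, 118 and 119.8 by lipid. Its method difference was thus alike in direction and near in size with both siRNAs, and the difference between them was 0.20 (SE 0.25).

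EGFL7, a secreted factor whose gene hosts miR-126, had 9.46, 19.1 and 4.84 units by nucleofection, against 59.7, 63.01 and 85.1 by lipid, and with all nucleofection arrays below 20 it was at least 3.42-fold lower. SPINT2, a serine protease inhibitor, had 153, 125 and 147 units by nucleofection, against 367, 303 and 328 by lipid (-1.23). SPARC, TIMP1 and TIMP2, a matricellular protein and both metalloprotease inhibitors, differed by -0.89, -0.80 and -0.62. LGALS3, the carbohydrate-binding galectin of maturing myeloid cells, was higher, with 73.07, 71.1 and 65.1 units by nucleofection, against 29.2, 36.9 and 23.7 by lipid (1.24, adjusted p = 0.00687, limma). FBN2, EGFL7, SPINT2, LGALS3 and the granule protease CFD held under either scaling and with any array left out. Outside the list, IGFBP4, which binds insulin-like growth factors, had 91, 103 and 63.4 units by nucleofection, against 312, 321 and 391 by lipid (-2.01, adjusted p = 0.000211, limma). The plot of 9 genes by array shows how FASN, FBN2 and MT2A were low on the nucleofection arrays of both siRNAs.

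**Figure D3:**
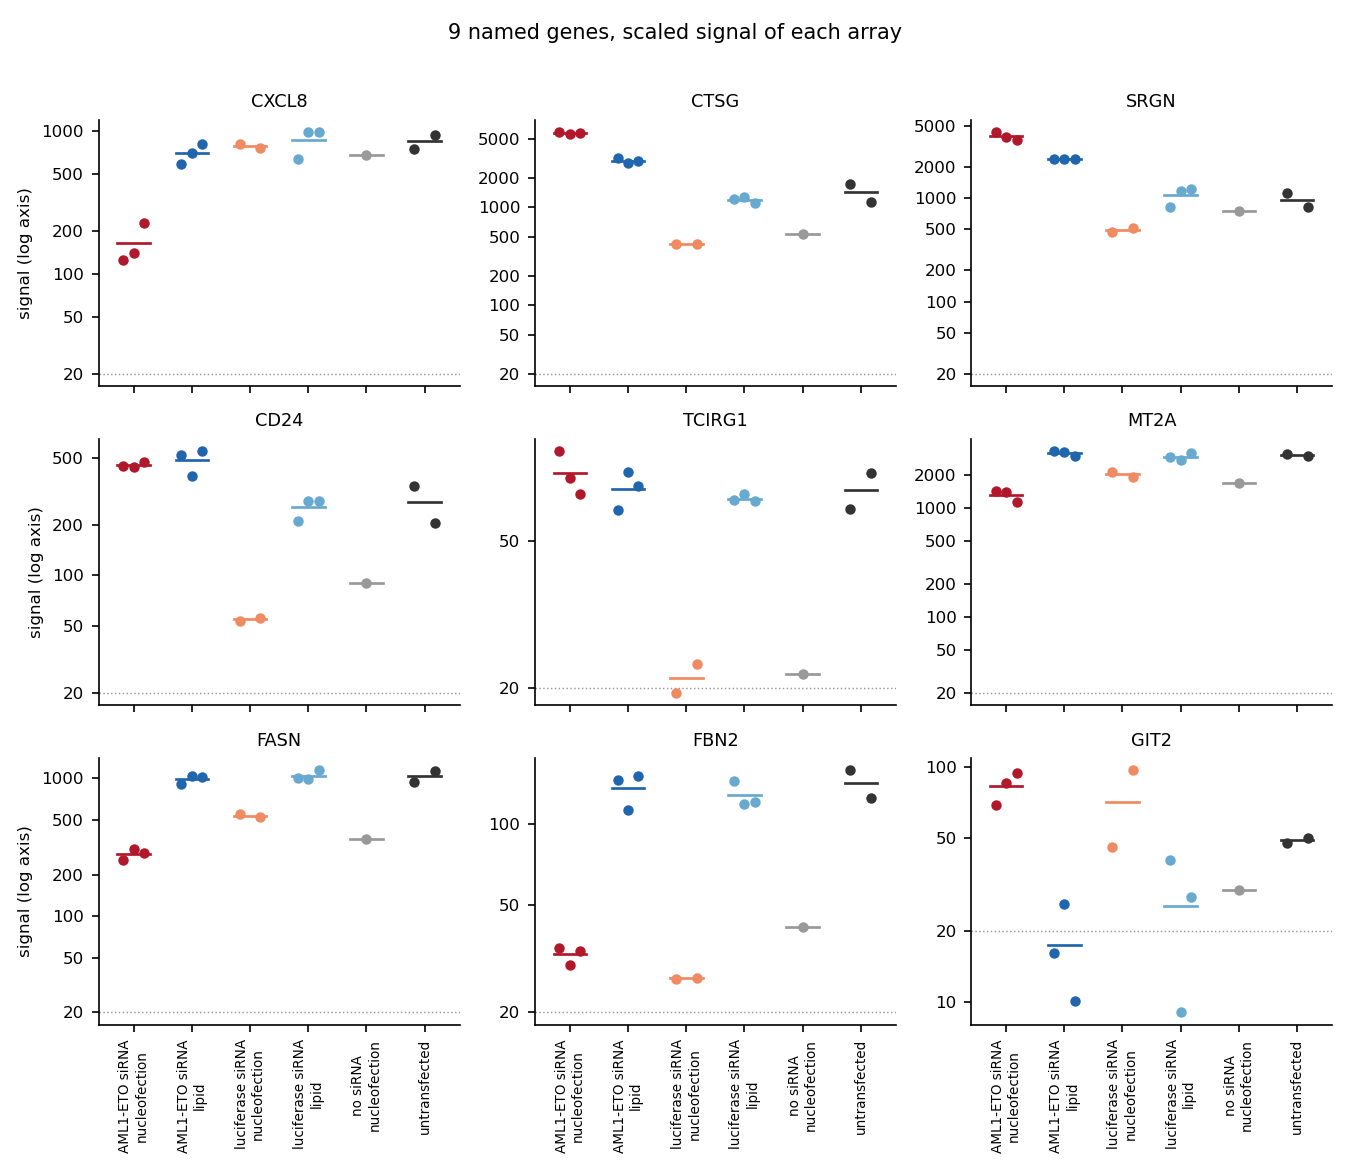
Signal of 9 named genes (log axis, arbitrary units) on each array by siRNA and method, with group means as bars and the floor of 20 dotted. CXCL8 is lowest on the 3 AML1-ETO siRNA nucleofection arrays, CTSG and SRGN are highest there, and CD24 and TCIRG1 are low on luciferase nucleofection arrays and on the nucleofection array without siRNA.

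The genes of the granule protein list did not move together. Of 17 tested members 3 were higher and 2 lower by nucleofection with AML1-ETO siRNA, beside 1.59% and 8.44% of all genes, with a median of -0.06. CTSG, cathepsin G of the primary granules, had 5903, 5550 and 5705 units by nucleofection, against 3154, 2864 and 2982 by lipid, with means of 5719 ± 177 and 3000 ± 146 (SD, n = 3 each). The difference was 0.93 (SE 0.16), 1.91-fold higher, with an adjusted p of 0.00548 (limma). RNASE2, the eosinophil-derived neurotoxin, had 1501, 1536 and 1296 units by nucleofection, against 889, 697 and 799 by lipid (0.86). SRGN, the proteoglycan on which granule proteases are stored, had 4366, 3848 and 3652 units by nucleofection, against 2397, 2369 and 2400 by lipid (0.72, adjusted p = 0.0264, limma). SRGN missed without any of lipid replicates 1, 2 and 3 and nucleofection replicates 1 and 3, at adjusted p up to 0.0884.

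CFD, the complement protease adipsin, had 111, 94.6 and 104 units by nucleofection, against 214, 201 and 226 by lipid (-1.05). MS4A3, a membrane protein of granulocyte-committed progenitors, had 58.6, 71.5 and 41.99 units by nucleofection, against 138, 84.1 and 166 by lipid (-1.15). CTSG, RNASE2, CFD and MS4A3 held under either scaling and with any array left out. MPO, ELANE, PRTN3 and LYZ, the best known products of neutrophil granules, differed by 0.21, 0.12, -0.49 and 0.40, and none passed. With luciferase siRNA 0 granule genes were higher and 9 of 17 lower by nucleofection, beside 5.99% of all genes lower, with a median of -0.59 against -0.11 for all genes.

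CTSG had the lowest adjusted p in the test of whether the method difference depended on the siRNA. With luciferase siRNA it had 419 and 423 units by nucleofection, against 1225, 1265 and 1114 by lipid, a difference of -1.51. The difference between the siRNAs was 2.44 (SE 0.24, adjusted p = 0.00239, limma), which is also how much larger the distance of AML1-ETO from luciferase siRNA was by nucleofection than by lipid. It passed with each of 11 arrays left out in turn, with values between 2.40 and 2.50. Over all probe sets 7 passed this test, all higher (0.0525% of those tested), and 1418 had an unadjusted p below 0.05. Over genes at their brightest probe set 4 passed (0.0492%). The next in order, CD5, AZU1, NINJ2 and MCAM, did not pass, AZU1, the granule protein azurocidin, with 1.63 (adjusted p = 0.062, limma).

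The other probe sets belonged to SRGN, CD24, TCIRG1 and SAT1. CD24, a mucin-like surface glycoprotein, had 447, 439 and 471 units by nucleofection, against 519.6, 388 and 547 by lipid, so the AML1-ETO groups overlapped. With luciferase siRNA CD24 had 53.6 and 55.9 units by nucleofection, against 211, 276 and 276 by lipid, and the nucleofection array without siRNA had 90.6. The difference between the siRNAs was 2.12 (SE 0.31, adjusted p = 0.0341, limma).

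TCIRG1, a subunit of the proton pump of lysosomes and osteoclasts, had 87.8, 74.3 and 67.1 units by nucleofection, against 60.8, 76.7 and 70.3 by lipid with AML1-ETO siRNA. It had 19.3 and 23.2 units by nucleofection, against 64.5, 66.9 and 64.1 by lipid with luciferase siRNA, and 21.8 without siRNA (difference between the siRNAs 1.74, adjusted p = 0.0341, limma). SAT1, the enzyme that acetylates polyamines, had 74.07, 69.6 and 73.4 units by nucleofection, against 91.8, 83.3 and 118 by lipid with AML1-ETO siRNA. These values are of a dimmer probe set of SAT1, whose brightest one did not pass. With luciferase siRNA both nucleofection arrays lay below 20 on the same dimmer probe set, so the difference of 1.74 is a lower bound. The calls of CD24, TCIRG1, SAT1 and SRGN held with at most 3 of the 11 arrays left out in turn, at adjusted p between 0.017 and 0.134 (limma). For each probe set that passed, the nucleofection arrays split by siRNA more widely than the lipid arrays did, as the plot of both siRNAs shows.

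**Figure D4:**
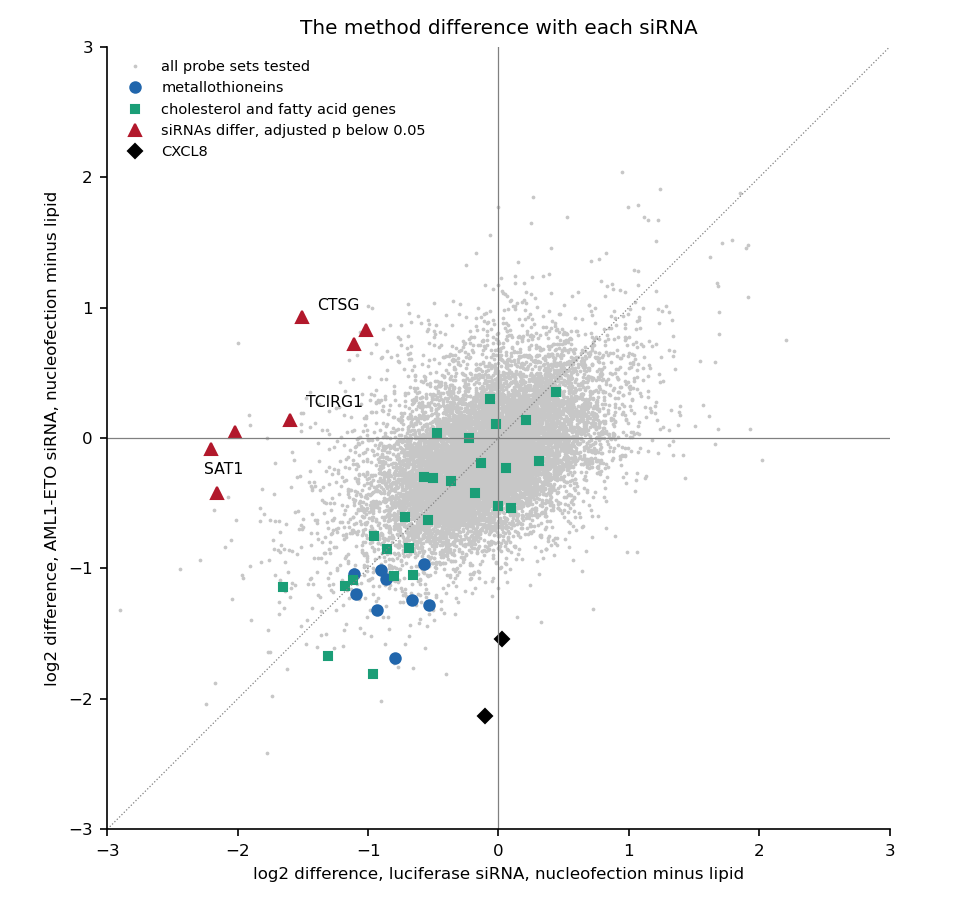
Log2 difference, nucleofection minus lipid, with AML1-ETO siRNA (vertical) against luciferase siRNA (horizontal) for the 13329 tested probe sets; the dotted line marks equality. The 7 probe sets that passed the test of the difference between the siRNAs lie above the line, CXCL8 lies below it, and the metallothionein and cholesterol genes lie mostly in the lower left.

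Genes of myeloid maturation were split. Of 34 tested members 3 were higher and 3 lower, beside 1.59% and 8.44% of all genes, and the median was 0.00. TYROBP, the signalling adaptor of monocyte and natural killer receptors, had 126, 94.4 and 108 units by nucleofection, against 41.5, 49.8 and 47.1 by lipid (1.24, SE 0.16, adjusted p = 0.00138, limma). It lay between 14.7 and 26.1 on all luciferase arrays. LAPTM5, a lysosomal protein of blood cells, had 2303, 2748 and 2551 units by nucleofection, against 1678, 1719 and 1541 by lipid (0.62), and missed without lipid replicate 3, nucleofection replicate 2 or nucleofection replicate 3 (adjusted p up to 0.068). IRF8, a factor of the monocyte line, differed by 0.76.

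SPI1, the master regulator PU.1, had 107, 128 and 121 units by nucleofection, against 162, 196 and 184 by lipid (-0.60). CSF3R and CSF2RB, receptor chains for granulocyte and granulocyte-macrophage growth factors, differed by -0.98 and -0.61. None of these 3 falls held under quantile normalization, where SPI1 gave -0.37 (adjusted p = 0.16, limma), and only TYROBP held with every array left out. With luciferase siRNA SPI1 differed by -1.04 and CSF3R by -1.91.

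Among 12 tested stem and progenitor genes, 0 were higher and 2 lower, beside 1.59% and 8.44% of all genes, and the median was -0.35. ERG, an ETS factor of blood stem cells, had 47.7, 52.2 and 39.96 units by nucleofection, against 98.9, 87.3 and 103 by lipid (-1.05, adjusted p = 0.0019, limma). CD34 had 29.1, 34.3 and 51.04 units by nucleofection, against 73.5, 66.9 and 66.6 by lipid (-0.89), and missed without nucleofection replicate 1 (-0.72, adjusted p = 0.059, limma). MYB and LMO2, a proliferation factor and a bridging factor of early blood cells, differed by -0.41 and -0.36 and did not pass.

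Of 13 tested genes that earlier work ties to AML1-ETO, 2 were higher and 3 lower, beside 1.59% and 8.44% of all genes. BCL2, the survival protein, had 122, 146 and 148 units by nucleofection, against 84.3, 59.2 and 80.3 by lipid (0.90), and IGFBP7, a secreted binding protein, had 1086, 1150 and 1044 units by nucleofection, against 722, 648 and 573 by lipid (0.76). JUP, plakoglobin, differed by -0.88, CCND2, cyclin D2, by -0.47 and RUNX1T1 by -0.57. JUP held under either scaling and with any array left out. BCL2 missed without nucleofection replicate 3 (adjusted p = 0.0526, limma), and the other 3 missed without several single arrays. BCL2 and JUP differed by 1.08 and -0.90 with luciferase siRNA, and IGFBP7 by -0.76, while the difference between the siRNAs for IGFBP7, 1.52, missed the threshold (adjusted p = 0.066, limma).

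Of 33 tested lysosomal genes 2 were higher and 1 lower, beside 1.59% and 8.44% of all genes. CTSZ, cathepsin Z, had 74.2, 91.9 and 84.1 units by nucleofection, against 29.4, 22.7 and 41.6 by lipid (1.46, adjusted p = 0.00408, limma), and held under every array left out and both scalings. CTSD, cathepsin D, differed by 0.64 and ATP6AP1, an accessory proton pump subunit, by -0.63. Each missed with 4 of the 6 arrays left out, and ATP6AP1 also under quantile normalization (-0.35, adjusted p = 0.131, limma). With luciferase siRNA 9 lysosomal genes were lower and 0 higher, beside 5.99% and 1.67% of all genes with that siRNA. Among 15 tested genes of the major histocompatibility complex, HLA-B and HLA-C were higher and none lower, beside 1.59% and 8.44% of all genes. HLA-B had 762, 815 and 648 units by nucleofection, against 372, 444 and 489.8 by lipid (0.77, adjusted p = 0.00972, limma), and 421 and 448 by nucleofection with luciferase siRNA. HLA-C missed with 5 of the 6 arrays left out. The probes of the HLA genes cross-hybridise, so the calls of HLA-B and HLA-C are not independent.

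Cell cycle genes were lower in small numbers, near the share of all genes. Of 45 tested S phase genes 5 were lower and 0 higher (median -0.23), and of 43 mitosis genes 6 were lower and 0 higher (median -0.22). GINS2, part of the replicative helicase, had 119, 114 and 104 units by nucleofection, against 169, 237 and 253 by lipid (-0.95). CCNE2, cyclin E2, had 22.3, 24.8 and 20.3 units by nucleofection, against 42.4, 44.4 and 35.2 by lipid (-0.85). CENPF, a kinetochore protein, had 119, 109 and 98.3 units by nucleofection, against 213, 275 and 229 by lipid (-1.13). These 3 held under either scaling and with any array left out, whereas FOXM1, CDC25B, TPX2, PTTG1, PRC1, POLE, RPA1 and FEN1, between -0.52 and -0.79, missed under quantile normalization. CDKN2A, the locus of p16 and ARF, fell by 1.37 (adjusted p = 0.00139, limma), with 46.6, 30.1 and 32.8 units by nucleofection, against 80.6, 91.3 and 108 by lipid.

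The transcripts of the cytosolic ribosome, among the brightest on the array, ran the other way as deposited. Among all 8130 genes 2481 had a difference above 0, and 1.59% passed as higher and 8.44% as lower. Of 45 tested ribosomal protein genes 41 had a difference above 0, 4 passed as higher and 0 as lower, and the median was 0.29. After quantile normalization 0 passed in either direction and the median was 0.01, so the call followed the scaling, and the brightest 1% of all probe sets had a median of 0.36. RPS3, a protein of the small subunit, had 8064, 7248 and 8048 units by nucleofection, against 5245, 5715 and 4538 by lipid (0.60, adjusted p = 0.0389, limma), and 0.24 after quantile normalization. None of the 4 calls held with every array left out. Genes of the mitochondrial ribosome had 1 higher and 3 lower of 45 (median -0.35) and those of oxidative phosphorylation 0 higher and 7 lower of 49 (median -0.25), beside 1.59% of all genes higher and 8.44% lower. Only NDUFC1, a subunit of complex I, held under both scalings and every array left out, with 291, 235 and 264 units by nucleofection, against 567, 457 and 764 by lipid (-1.15).

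**Figure D5:**
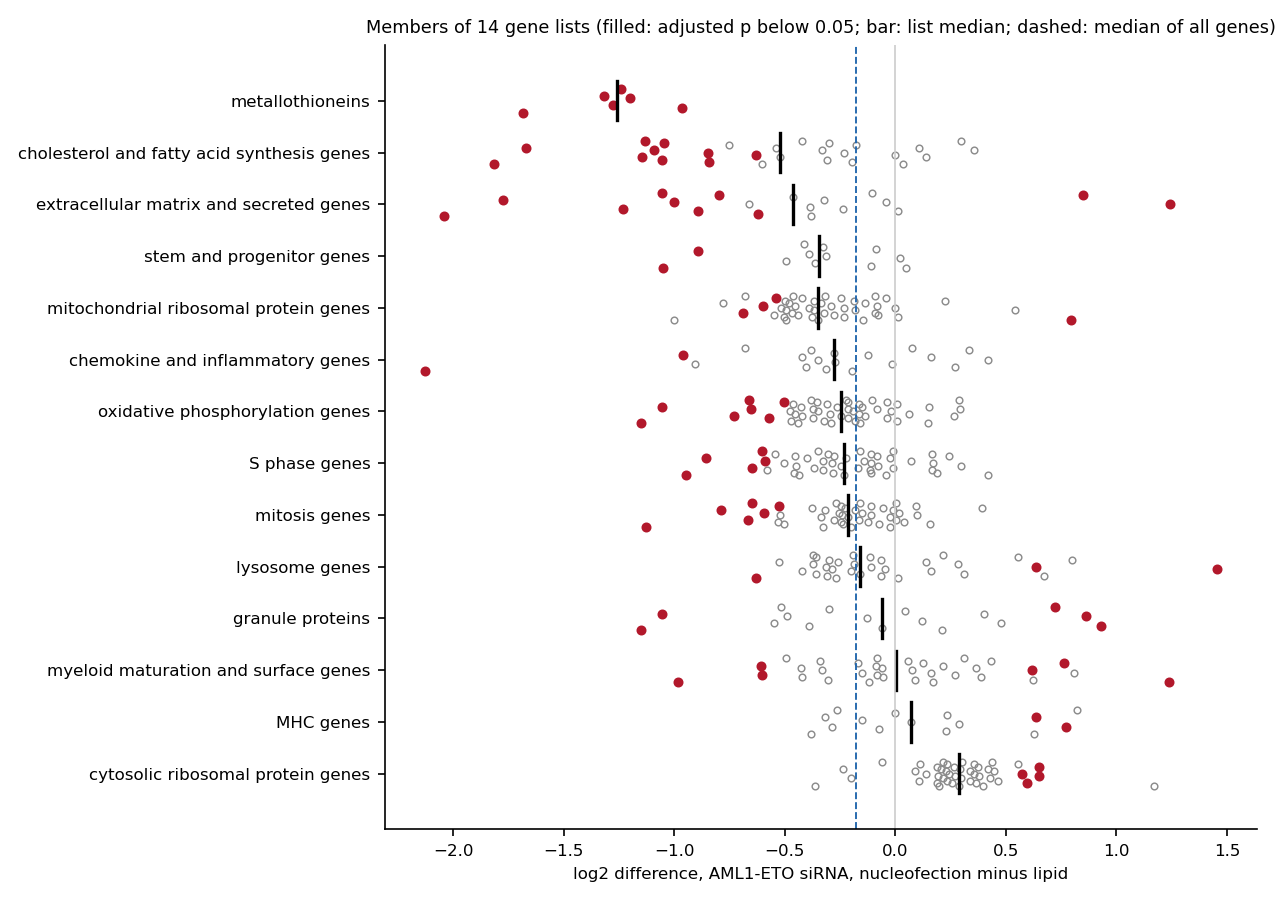
Log2 difference with AML1-ETO siRNA, nucleofection minus lipid, for each tested member of 14 gene lists, the metallothioneins being part of a larger list; filled points passed an adjusted p below 0.05, black bars are list medians and the dashed line is the median of all genes, -0.18. The metallothionein median is -1.26 and that of the cholesterol list -0.52, while granule and myeloid members lie on both sides of 0.

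The counts of the remaining lists stand beside the same shares of all genes, 1.59% higher and 8.44% lower. Interferon response genes had 0 higher and 3 lower of 18, led by IFITM3, an antiviral membrane protein, with 419, 453 and 387 units by nucleofection, against 1063, 814 and 946 by lipid (-1.16). Genes of the unfolded protein and amino acid stress response had 1 higher and 3 lower of 31, and heat shock genes 0 higher and 3 lower of 19. Immediate early genes had 1 higher and 2 lower of 23, with JUND, a Jun family factor, at -0.78, and genes of the RNA interference machinery had 0 higher and 1 lower of 10. Genes of glycolysis and hypoxia had 2 higher and 3 lower of 31. Of these SLC2A1, the glucose transporter, at -1.10, and EGLN1, the oxygen sensor, at -1.05, held under either scaling and with any array left out.

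Apoptosis regulators had 1 higher and 3 lower of 21, p53 targets and cell cycle inhibitors 1 higher and 2 lower of 14, ribosome biogenesis and MYC targets 0 higher and 3 lower of 28, and histone genes 0 higher and 1 lower of 9. Among markers of other cells, the erythroid and megakaryocytic list had 0 higher and 2 lower of 13, TFRC and EPOR, and its summed signal was between 1878 and 2026 by nucleofection and between 2695 and 2906 by lipid. TFRC and EPOR are the transferrin and erythropoietin receptors. The summed signal of the lymphoid markers was between 451 and 507 by nucleofection and between 361 and 434 by lipid, and that of the markers of cells outside the blood between 576 and 652 by nucleofection and between 717 and 777 by lipid. These 3 sums did not overlap between the methods, while that of the mast cell, basophil and eosinophil markers did, and their part in the results was not tested. The lymphoid list had 1 higher of 10, the cytotoxic granule gene NKG7 at 0.74, the mast cell, basophil and eosinophil list 0 of 6, and the list of cells outside the blood 1 lower of 11, EPCAM at -0.69. In these 4 lists 0 calls held with every array left out.

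The 14 largest rises were mostly of dim genes. GIT2, an adaptor that inactivates ARF GTPases, had 68.8, 85.6 and 94.8 units by nucleofection, against 16.1, 26.3 and 10.1 by lipid (at least 1.91, adjusted p = 0.00254, limma). The difference is a lower bound because 2 of the 3 lipid arrays lay below 20 and were raised to it. PTPRC, the leukocyte phosphatase CD45, had 292, 385 and 254 units by nucleofection, against 88.2, 78.3 and 104 by lipid (1.77, adjusted p = 0.000905, limma), while its other tested probe sets gave 1.05 and 0.29 and did not pass. CRIP1, a small LIM-domain protein, had 62.5, 88.7 and 99.7 units by nucleofection, against 6.37, 13.5 and 34.9 by lipid (at least 1.77, with 2 lipid arrays below 20), and all 5 luciferase arrays lay below 20. MRC2, a collagen receptor, had 350.4, 298 and 308 units by nucleofection, against 115, 117 and 125 by lipid (1.42). Its other probe set gave 0.25 and did not pass.

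JAG1, a Notch ligand, had 73.7, 117 and 76.3 units by nucleofection, against 27.4, 32.5 and 44.5 by lipid (1.35), and its second tested probe set, with 1 lipid array below 20, gave at least 1.65. NFIC, a CCAAT-binding factor, differed by at least 1.70, with 1 lipid array below 20, and by 1.09 on its other probe set. SPDEF, an epithelial ETS factor, lay below 20 on all lipid arrays and was higher by at least 1.85 on the log2 scale. Its other tested probe sets gave -0.06 and -0.10 and did not pass. SHARPIN, a subunit of the linear ubiquitin ligase, lay below 20 on all lipid arrays too and was higher by at least 1.70. Other probe sets went against the brightest one for SMC3, a cohesin subunit, with 1.67 beside -0.45 and -0.44, for RASSF4, a Ras-association protein, with 1.51 beside -0.40, and for USF2, an E-box factor, with 1.46 beside -0.17 and -0.23. PLCB2, a phospholipase, had 55.8, 45.2 and 64.9 units by nucleofection, against 4.89, 15.4 and 21.5 by lipid, and with 2 lipid arrays below 20 it was higher by at least 1.42. MCF2L, a guanine nucleotide exchange factor, differed by 1.26. SPDEF, USF2 and MCF2L were the 3 that lost their calls with some array left out, SPDEF and MCF2L at the highest adjusted p, 0.0723 and 0.0701, without lipid replicate 3, and USF2 at 0.106 without nucleofection replicate 1.

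The falls not yet named were of RRBP1, a ribosome-binding protein of the endoplasmic reticulum, at -1.81, LRRC17, a secreted leucine-rich protein, at -1.61, EID1, an inhibitor of differentiation, at -1.61, and WBP2, a coactivator, at -1.58. RRBP1 had 40.1, 26.02 and 21.4 units by nucleofection, against 106, 116 and 77.7 by lipid, but its other tested probe sets gave 0.02, 0.49 and 0.57. EID1 passed on a second probe set at -0.97.

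The luciferase arrays give the same method contrast from other arrays. With luciferase siRNA 1126 probe sets passed (8.45%), 265 higher (1.99%) and 861 lower (6.46%), and over genes 623 passed (7.66%), 136 higher (1.67%) and 487 lower (5.99%). Of these calls 397 were shared in direction with AML1-ETO siRNA, 53 higher and 344 lower, which is 28.9% of the AML1-ETO calls and 35.3% of the luciferase calls, and 9 were opposite. Across all tested probe sets the differences correlated at Pearson r = 0.48 and Spearman rho = 0.47, as a description over probe sets that share arrays, scaling and the brightness trend. The largest shared rises by the smaller of the 2 differences were USF2, GIT2, SMC3, RASSF4, NFIC and RC3H1, an RNA-binding ubiquitin ligase. Other probe sets of SMC3, RASSF4 and USF2 went against the brightest one with AML1-ETO siRNA, as given above. With luciferase siRNA those of SMC3 and USF2 read higher by nucleofection, but that of RASSF4 differed by -1.05 (adjusted p = 0.0214, limma). The largest shared falls were FBN2, EGFL7, SLC39A4, EID1, NPIPA1 and BPTF, a chromatin remodelling subunit. BPTF had 125, 128 and 118 units by nucleofection, against 278, 272 and 394 by lipid (-1.32), and differed by -1.36 with luciferase siRNA, but its other probe set gave -0.37 and did not pass.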

How the data were processed

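In all, 14 RNA samples of Kasumi-1 cells were labelled as biotinylated cRNA and hybridised to 1-colour arrays of 22283 probe sets. Per the submitters' processing notes the authors used MAS5, and the deposited values are linear intensity values. After division by the scale factor of each sample, 100% of the values were whole multiples of 0.1 (tolerance 0.02), so the deposited intensities are scaled signals, and the scaling to 1 mean was kept. Scanner-level data were not used here, and the small number of arrays limits the precision.

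Values under 20 were set to 20 and log2 was taken. The 68 control probe sets were left out, and the upper 60% of probe sets by mean log2 value were kept (13329, mean signal from 22.5). One model of 6 group means over 14 arrays (8 residual degrees of freedom) was fitted with limma 3.58.1 in R 4.3.3, with Benjamini-Hochberg adjustment over all probe sets tested and a threshold of 0.05. The contrasts were nucleofection minus lipid with each siRNA and the difference between them. RUNX1T1 was tested in the same model without the filter. A gene stood for its brightest probe set among those with a single symbol (19065 probe sets had 1 symbol, 1043 several and 2107 none). The procedure was tested on simulated data. Promoters came from RefSeq (GRCh38.p14).

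The genes named are all RUNX1T1 probe sets, the 14 largest non-overlapping called differences each way, the 8 lowest p for the difference between the siRNAs, the 6 largest shared calls each way, and per list the called members with up to 5 of lowest p. KIT, MPO, POU4F1, ELANE, PRTN3, LYZ, FDPS and the further probe sets passing the difference test were named outside this rule, after their values were seen. The comparison, its members and the gene lists were chosen with earlier results of these data known. Alternatives covered scaling, floor, filter, probe set choice, model, covariates and each array left out. Same-numbered arrays did not deviate together (correlations of 0.01, -0.04 and -0.06), so replicate numbers were not used as pairs. Python 3.11.15, pandas 2.3.3, numpy 2.4.6, scipy 1.17.1 and matplotlib 3.10.9 were used.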

Additional observations from a re-analysis of the deposited data

Results flagged for a closer look

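The method difference depended on the siRNA, by the test of that difference, for 7 probe sets. Of these calls only that of CTSG held with each of 11 arrays left out in turn. The others held with at most 3 of the 11 left out. The difference with AML1-ETO siRNA minus that with luciferase siRNA was 2.44 for CTSG, 2.12 and 2.06 for the probe sets of CD24, 1.83 and 1.84 for those of SRGN, 1.74 for TCIRG1 and 1.74, as a lower bound, for SAT1. The other 4 probe sets of CD24 gave between 0.55 and 1.62 and did not pass, nor did the brightest probe set of SAT1. The ribosomal RNA control probe set, used in no gene comparison, averaged 323 units with AML1-ETO siRNA by nucleofection and 32.5 by lipid. With luciferase siRNA it read between 244 and 1409 by nucleofection and between 15.2 and 58.02 by lipid, and in untransfected cells between 46.3 and 67.9.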

How the results depend on the processing

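With AML1-ETO siRNA the count of 1374 called probe sets became 871 with quantile normalization, 893 with median centring, 534 with only the arrays of the contrast, 429 with the scale factor as a covariate, 493 with quantile normalization and without lipid replicate 3, 9 with the ribosomal RNA signal as a covariate, and between 575 (without nucleofection replicate 3) and 1127 with 1 array left out. That signal did not overlap between the methods and cannot be told apart from them. The luciferase count of 1126 became 586 with 1 probe set per gene, 408 with its own arrays, 364 with the scale factor, 3 with the ribosomal RNA signal, and 365 to 561 with 1 array left out. The 7 calls of the difference between the siRNAs became 31 with quantile normalization, 17 with centring, 12 and 59 with floors of 10 and 64, 43 without a filter, 20 with the upper 40%, 4 with 1 probe set per gene, 32 with an intensity trend, 18 with array weights, and 1 to 16 with 1 array left out. RUNX1T1, -0.57, missed the threshold at -0.28 (quantile), -0.41 (centred), -0.57 (floor 10, own arrays or replicate block), -0.42 (scale factor), -0.27 (quantile without lipid replicate 3) and -0.17 (ribosomal RNA), with -0.64 to -0.45 over single arrays left out. With the replicate number as a block, where samples share only a number, the replicate block gave 984, 625 and 1 calls for the AML1-ETO, luciferase and difference tests. The alternatives with the ribosomal RNA signal and with quantile normalization without lipid replicate 3 were chosen after seeing the data. Of 646 alternatives over the 31 largest and shared genes 589 kept direction and call, 57 lost the call and 0 reversed. Of 2164 over 104 other called list members 1367 kept it, 797 lost it and 0 reversed. The causes were not tested.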

Other observations

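The single nucleofection array without siRNA belongs to no group with replicates, and its values are given without a test. It had 537 units of CTSG, 90.6 of CD24 and 21.8 of TCIRG1. FASN stood at 364 and FBN2 at 41.4 there, and CXCL8 at 684.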
